A study of Mus musculus with 16 samples.

Results

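Apoe, Apoc1 and Apoc2 are 3 neighbouring apolipoprotein genes of one mouse cluster, and they were taken from the count table by their gene symbols: 3 of its 15871 entries. The libraries came from peritoneal macrophages of wild-type C57BL/6 mice aged 8 weeks, recruited with an injection of 6% soluble starch and then cultured for 48 h in 4 conditions, with 4 RNA-seq libraries in each. The low-glucose control (L_C) received 27.5 mM mannitol to match osmolarity, and the second low-glucose group (L_O) received oxidised low-density lipoprotein (ox-LDL), which loads macrophages with cholesterol and turns them into foam cells. High glucose alone (H_C) was 33 mmol/L, and the last group (H_O) combined 33 mmol/L glucose with ox-LDL. The labels give the ox-LDL dose as 50 mg/ml, a unit that could not be checked, and name no mannitol for L_O. If L_O had none, L_O against L_C differed in mannitol as well as ox-LDL, and H_O against L_O in osmolarity as well as glucose. In those comparisons the parts cannot be told apart. The study set out to look for atherosclerosis targets under high glucose. Whether the libraries of a group came from separate mice or cultures is not stated, so the p-values measure the spread between these libraries, which may be technical. All 9 macrophage markers examined (among them Adgre1, Csf1r and Cd68) were present, with a summed level of 17500 to 21000 CPM (counts-per-million) per library. Lyz2 alone, at 13300 to 16800 CPM, made up most of this sum.

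Apolipoproteins are the protein parts of lipoprotein particles. Apoe, which macrophages secrete in quantity, binds cell-surface lipoprotein receptors and accepts cholesterol exported by the cell. Apoc2 is the cofactor that lipoprotein lipase needs to hydrolyse triglycerides, and Apoc1 inhibits lipoprotein uptake and remodelling enzymes. The genes lie side by side, share distal enhancers active in macrophages and liver, and are known targets of the oxysterol-sensing liver X receptors (LXR).

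In GENCODE vM21 coordinates (GRCm38, which is mm10), all 3 genes are on the minus strand of chromosome 7. Apoe spans chr7:19696109-19699188, Apoc1 spans chr7:19689481-19692660 and Apoc2 spans chr7:19671579-19677941. The whole stretch from Apoc2 to the far end of Apoe covers 27610 bp. Apoc4, another small apolipoprotein gene, sits between Apoc2 and Apoc1, and its end lies 141 bp from the start of Apoc2. Tomm40, which encodes the pore of the mitochondrial outer-membrane translocase, follows Apoe on its upstream side.

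Upstream sequence was available for 2 of the 3 genes, and it is shown because both of them, Apoe and Apoc2, had more RNA in high glucose. The sequences are RefSeq's (GRCm38.p6), run 5′ to 3′ on the minus strand up to the base before the gene's start, and capitals mark AGGTCA, the half-site bound by nuclear receptors such as LXR. The Apoc2 window is chr7:19677942-19678082, all of the gap between Apoc4 and Apoc2, and the Apoe window is chr7:19699189-19699438.
Apoc2: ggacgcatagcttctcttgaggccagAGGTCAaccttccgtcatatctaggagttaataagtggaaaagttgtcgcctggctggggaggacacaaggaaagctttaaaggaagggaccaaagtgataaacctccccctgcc
Apoe: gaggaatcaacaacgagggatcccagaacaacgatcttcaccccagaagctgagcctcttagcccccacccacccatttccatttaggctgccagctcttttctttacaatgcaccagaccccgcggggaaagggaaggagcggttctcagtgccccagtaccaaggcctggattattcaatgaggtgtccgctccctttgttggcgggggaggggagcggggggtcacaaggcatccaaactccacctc
Both strands were searched for 6 motifs, and the share of 32851 RefSeq mouse promoters with a match in 250 bases was counted for each. The half-site AGGTCA occurred in 14% of those promoters. The TATA box, searched as TATAAA, occurred in 12.4%. An E-box, searched as CACGTG, occurred in 6.02% of them. A GC box, searched as GGGCGG, occurred in 32.7%. The C/EBP palindrome TTGCGCAA occurred in 0.164%. The DR4 element, a direct repeat of the half-site with 4 bases between its copies, occurred in 0.0152%, and its matches are also matches of the half-site. The Apoc2 window held 1 match, a single half-site from 115 to 110 bases before the start. The Apoe window held no match to any of the 6. RefSeq's table held 4 windows for these 2 genes, so it lists further Apoe starts besides the one shown. One of them lies inside the gene, at chromosome 7 position 19698621. The bases before it held TATAAA on the same strand (96 to 91 bases before) and on the opposite strand (100 to 95 bases before). No match to the 6 motifs was found before any other further start.

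The 3 genes stood at very different levels. Per kilobase of exon, the measure on which genes can be compared, Apoe averaged 2840 CPM per kb in L_C, which ranked 13 of 14263 entries with a known length. Apoc2 averaged 4.11 CPM per kb there and ranked 6733. Apoc1 had between 0 and 10 reads per library in all 16 libraries. Apoe reads made up 0.48% to 0.841% of a library, so its values rest on 156612 to 309714 reads, whereas Apoc2 rests on 85 to 415 reads. Library totals ran from 32596640 to 41712885 reads.

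One library, L_C replicate 4, stood apart from its group over all genes. Its chi-square per degree of freedom against the other L_C libraries was 99.4 to 104, against 6.59 to 19.4 for all other pairs within a group, and its mitochondrial share was 3.71% against 1.48% to 2.3% elsewhere. Apoe in it, 6280 CPM, lay at the top of its group together with L_C replicate 1, and Apoc2, 2.83 CPM, lay lowest. Each member call below was kept without it, with values given where they differ most.

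**Figure D1:**
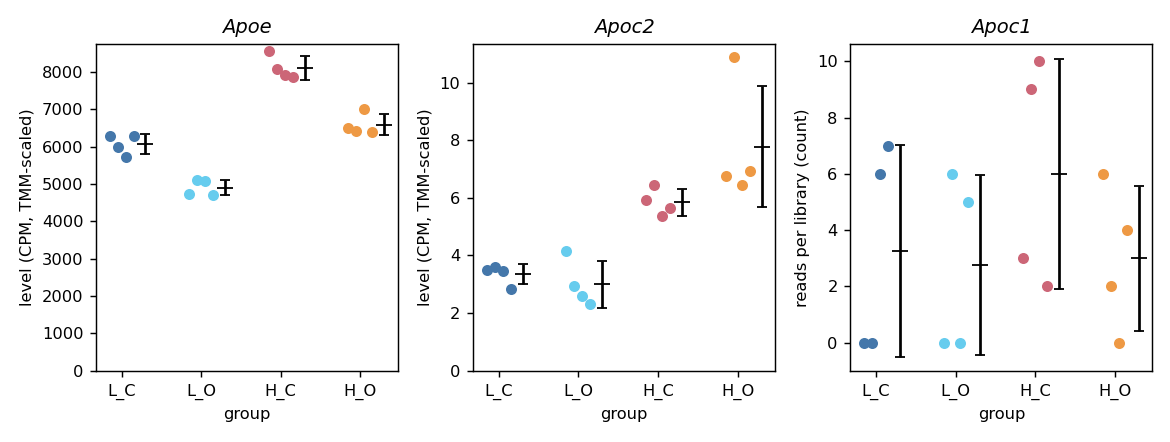
Levels of Apoe and Apoc2 (CPM, scaled by TMM) and reads of Apoc1 in each of the 16 libraries by group, with bars for the mean ± SD (n = 4). Apoe falls with ox-LDL and rises with glucose with no overlap between groups, Apoc2 is higher in both high-glucose groups, and Apoc1 stays at 10 reads or fewer.

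The first comparison asked what ox-LDL did to Apoe at each glucose level. Apoe was lower with ox-LDL in both, although L_O and L_C may also differ in mannitol. The L_C libraries had 6280, 5990, 5720 and 6280 CPM, and the L_O libraries had 4740, 5100, 5070 and 4720 CPM. Every L_O library lay below every L_C library. In high glucose the H_C libraries had 8560, 8080, 7930 and 7870 CPM and the H_O libraries 6510, 6430, 7000 and 6400 CPM, again without overlap. The group means were 6070 ± 268 CPM (SD, n = 4) in L_C, 4910 ± 207 in L_O, 8110 ± 313 in H_C and 6580 ± 283 in H_O.

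In low glucose Apoe fell by 0.31 on the log2 scale (SE 0.043), a change of -19.1%, with an adjusted p of 2.76e-05 in edgeR's quasi-likelihood test. In high glucose it fell by 0.30 (SE 0.043), a change of -18.8%, with an adjusted p of 3.92e-05 in the same test. Of the 13527 entries tested, 13.8% were called lower in L_O than in L_C and 11.5% were called lower in H_O than in H_C, so a fall with ox-LDL was shared with many other genes. In these bulk samples, fewer cells of a type and less RNA per cell cannot be told apart. Markers of small peritoneal macrophages and monocytes moved in the same direction as Apoe: the 12 of 12 measured summed to 1410 to 1670 CPM in L_C against 706 to 742 in L_O, and to 1050 to 1220 in H_C against 593 to 698 in H_O. Of these 12, 7 were called lower in L_O and 3 in H_O, with 0 higher, and Itgax, Fn1 and Clec12a made up most of the sum. The 14 markers of large peritoneal macrophages summed to 505 to 596 CPM in L_C and 428 to 471 in L_O, and to 505 to 564 in H_C and 474 to 569 in H_O. Of these 14, 7 were called lower in L_O (median log2 fold change -0.75) and 6 in H_O (median -0.46). In each case 1 was called higher, Thbs1, which is a large part of the sum. Thbs1 averaged 168 CPM in L_C and 230 in L_O, and 152 in H_C and 275 in H_O. Sums of markers of some rarer cells were also lower in L_O than in L_C, but not of all. Neutrophil markers summed to 3.6 to 4.97 CPM in L_C and 3.59 to 5.23 in L_O. Erythroid and platelet markers summed to 14.4 to 18.1 CPM in L_C and 13.1 to 18.2 in L_O. The 6 dendritic cell markers in the table (of 8) summed to 52.7 to 79.7 CPM in L_C against 27.1 to 31.2 in L_O, and to 70.7 to 82.4 in H_C against 31.9 to 38.1 in H_O. Cd24a alone, at 24.6 to 79.6 CPM over all libraries, made up most of this sum. The 2 eosinophil markers in the table (of 5) summed to 14.2 to 20.7 CPM in L_C against 3.69 to 4.98 in L_O, and to 19.7 to 23.6 in H_C against 4.7 to 5.76 in H_O. Siglecf alone, at 3.69 to 23.6 CPM over all libraries, made up nearly all of this sum. The 13 mesothelial and fibroblast markers summed to 64.9 to 89.5 CPM in L_C against 26.9 to 41.8 in L_O, whereas 43 to 222 in H_C and 40.7 to 112 in H_O overlapped. The part of any of these in the fall of Apoe was not tested.

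No difference was called between the ox-LDL effects on Apoe at the 2 glucose levels. The difference between the effects in high and in low glucose was 0.01 on the log2 scale (SE 0.061), and its 95% interval ran from -0.12 to 0.13, which as a ratio of fold changes is 0.919 to 1.1. The unadjusted p was 0.924 and the adjusted p from edgeR was 0.99. Across all entries, 0.0148% were called for this difference.

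High glucose had the opposite effect to ox-LDL on Apoe. Without ox-LDL, Apoe rose 1.34-fold (log2 fold change 0.42, SE 0.043, 95% interval 0.33 to 0.51, edgeR adjusted p = 6.62e-06). With ox-LDL present in both groups it also rose 1.34-fold (0.42, SE 0.043, 95% interval 0.33 to 0.51, edgeR adjusted p = 1.18e-05). This second comparison, H_O against L_O, may also differ in osmolarity. Fewer entries were called higher with glucose than with ox-LDL: 5.02% in H_C against L_C and 2.71% in H_O against L_O, beside 12% in L_O against L_C and 10.4% in H_O against H_C. In either direction 826 entries were called in H_O against L_O, a count that was 1763 without L_C replicate 4 and 1619 with only the 8 libraries compared. The 9 macrophage markers summed to 17500 to 20300 CPM in L_C and 18500 to 19000 in H_C, which overlapped, with 2 called higher and 4 lower. With ox-LDL the macrophage markers summed to 18200 to 18900 CPM in L_O and 19400 to 21000 in H_O, without overlap and in the direction of Apoe. Lyz2 made up most of this sum, with 14500 CPM on average in L_O and 15900 in H_O. In H_O against L_O 3 of the 9 were called higher and 0 lower, and Adgre1 (-0.23) and Fcgr1 (-0.28) pointed down without a call. The small-macrophage and monocyte markers moved opposite to Apoe here as a sum, with H_C below L_C and H_O below L_O. Itgax, Fn1 and Clec12a made up most of that sum (767, 475 and 243 CPM on average in L_C). Of the 12 markers, 4 were called lower in H_C against L_C and 2 in H_O against L_O, with 0 higher. Over all entries 7.75% and 3.39% were called lower. In H_O against L_O their median log2 fold change was -0.25, and single markers pointed in both directions. The part of any of these markers in the glucose rise was not tested. The comparisons share groups, since L_C enters both the ox-LDL and the glucose comparison, so their values are set side by side here and not related to each other.

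The order of the Apoe levels was H_C, H_O, L_C and L_O, and no neighbouring groups in it overlapped. The exact two-sided permutation test gave p = 0.0286 for each of the 3 neighbouring pairs, which is the smallest that 4 against 4 libraries allow. The groups were ordered by these same means, so this unadjusted p restates the lack of overlap and adds no support to it. H_O, with both treatments, averaged 6580 CPM against 6070 CPM in the L_C group, the mannitol control. Apoe ranked 14 by CPM per kb in L_O, 10 in H_C and 9 in H_O.

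**Figure D2:**
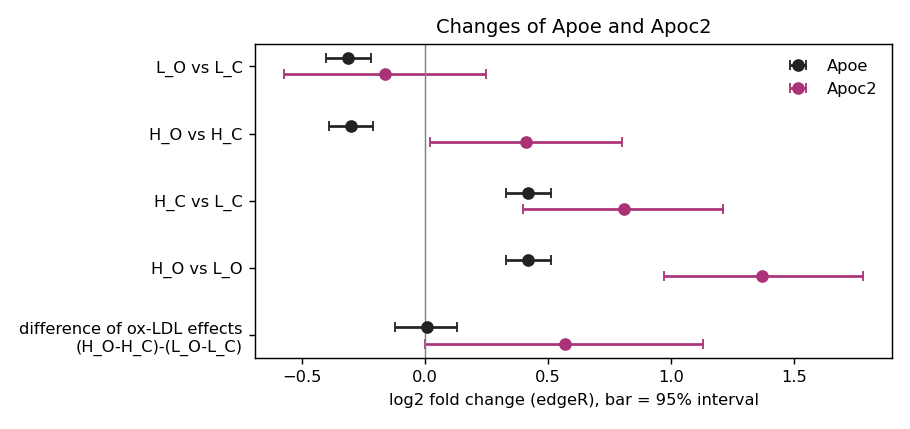
Log2 fold changes of Apoe and Apoc2 in the 4 pairwise comparisons and for the difference of the ox-LDL effects, with bars for the 95% interval. Apoe intervals are narrow and lie below 0 for ox-LDL and above 0 for glucose, and Apoc2 has its highest value, 1.37, in H_O against L_O.

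Apoc2 passed the test for glucose and did not pass it for ox-LDL. Its libraries had 3.49, 3.59, 3.46 and 2.83 CPM in L_C and 4.17, 2.94, 2.58 and 2.31 CPM in L_O. These groups overlapped, and the highest L_O library lay above all of L_C. The H_C libraries had 5.92, 6.45, 5.38 and 5.63 CPM, and the H_O libraries had 6.77, 10.9, 6.46 and 6.94 CPM. All 8 high-glucose libraries lay above all 8 low-glucose libraries, and H_O replicate 2 stood well above the rest of its group.

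Without ox-LDL, Apoc2 rose 1.75-fold in high glucose, from 3.34 ± 0.347 to 5.84 ± 0.463 CPM (SD, n = 4), with a log2 fold change of 0.81 (SE 0.191, 95% interval 0.40 to 1.21) and an edgeR adjusted p of 0.00877. With ox-LDL it rose 2.59-fold, from 3 ± 0.822 to 7.77 ± 2.1 CPM, with a log2 fold change of 1.37 (SE 0.191, 95% interval 0.97 to 1.78) and an edgeR adjusted p of 0.000272. Without L_C replicate 4 the first value was 0.73 (edgeR adjusted p = 0.0176), and without H_O replicate 2 the second was 1.17 (edgeR adjusted p = 0.000826). Both calls were therefore present without the libraries that stand apart. The H_O against L_O comparison may also differ in osmolarity, since no mannitol is named for L_O.

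Ox-LDL gave no call for Apoc2. In low glucose the log2 fold change was -0.16 (SE 0.194, 95% interval -0.57 to 0.25, edgeR adjusted p = 0.607), and it was -0.36 without L_O replicate 1 and -0.05 without L_O replicate 4. In high glucose it was 0.41 (SE 0.185, 95% interval 0.02 to 0.80, edgeR adjusted p = 0.134), although the groups did not overlap, and without H_O replicate 2 it was 0.20 (edgeR adjusted p = 0.491). The difference between these effects was 0.57 (SE 0.268), with an unadjusted p of 0.0486 and an edgeR adjusted p of 0.58, so a glucose effect that depends on ox-LDL was not shown for Apoc2. Without H_O replicate 2 that difference was 0.36 (edgeR adjusted p = 0.828), and without L_O replicate 1 it was 0.77 (edgeR adjusted p = 0.34). The intervals allow a change of Apoc2 by ox-LDL in low glucose from -32.5% to 19%.

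The order of the Apoc2 levels was H_O, H_C, L_C and L_O. The exact two-sided permutation p was 0.0286 for H_O against H_C and for H_C against L_C, and 0.371 for L_C against L_O, which did not differ beyond their spread. Here too the groups were ordered by their own means, and the unadjusted 0.0286 only restates the lack of overlap. In edgeR the H_O against H_C change was not called (adjusted p = 0.134). Apoc2 ranked 4970 by CPM per kb in H_C and 4061 in H_O.

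Markers of other cells were examined beside the Apoc2 rise. The sum of the 13 mesothelial and fibroblast markers, 43 to 222 CPM in H_C and 40.7 to 112 CPM in H_O, compares with 64.9 to 89.5 CPM in L_C and 26.9 to 41.8 CPM in L_O. Of the 12 of them tested, 0 were called by edgeR in either glucose comparison. In H_C against L_C 0 had an unadjusted p under 0.05 and 0 were called by DESeq2 or limma-voom, with a median log2 fold change of 0.23. In H_O against L_O, where Apoc2 rose by 1.37, the median was 0.85, with 4 at an unadjusted p under 0.05, 2 called by DESeq2 and 0 by limma-voom. In H_C replicate 3, which had the 222 CPM, Apoc2 was the lowest of its group, 5.38 CPM. The same sum in H_O replicate 2, which had the highest Apoc2, was 112 CPM, the highest of its group, and the macrophage sum, 21000 CPM, was also the highest. Whether these go together with its Apoc2 value was not tested.

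The reads of Apoc2 carry an annotation limit. In the GENCODE transcripts, 598 of the 764 stretches of 50 bases in Apoc2, or 78.3%, are also in Gm44805, a readthrough transcript that joins Apoc4 and Apoc2. Gm44805 had its own row with 0 to 9 reads per library, and its highest value, 9 reads, was in H_O replicate 2. How the authors' counting treated shared reads is not given in the sources used here. The split between the 2 entries is therefore uncertain, and shared reads may have been counted in neither. The level and rank of Apoc2, and its reads per Apoe reads given below, may be too low for this reason. Of the stretches of 50 bases in Apoe (2293) and Apoc1 (766), 0% were shared with any other gene.

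Apoc1 was at or near the limit of detection. It had 0, 0, 6 and 7 reads in L_C, 0, 6, 0 and 5 in L_O, 3, 9, 10 and 2 in H_C, and 6, 2, 0 and 4 in H_O. Summed over a group this was 0.0883 CPM of the unscaled totals in L_C (exact Poisson 95% interval 0.047 to 0.151), 0.0788 in L_O (0.0393 to 0.141), 0.168 in H_C (0.108 to 0.251) and 0.0807 in H_O (0.0417 to 0.141). The 4 intervals overlapped, and no difference was detectable at this depth. In the 5 libraries with 0 reads a count of 0 allows up to 3 reads, a level of 0.0803 to 0.092 CPM. Such intervals cover counting error only, and 57.4% of all deposited values from 1 to 20 were even, so reads may not have been counted one by one. Apoc1 did not pass the filter on low counts. Fitted with no filter over 15871 entries, its log2 fold changes were -0.26 and -1.08 with ox-LDL (edgeR adjusted p = 0.93 and 0.69) and 0.87 and 0.06 with glucose (edgeR adjusted p = 0.77 and 0.994), with SEs of 1.35 to 1.38, so none was called. Its neighbour Apoc4 had 0 to 8 reads, and the liver apolipoproteins of the same file were as low, with 0 to 19 reads for Apoa1 and 0 to 17 for Apoa2. The hepatocyte markers summed to 0.463 to 16 CPM, and in H_C replicate 2, which had the 16 CPM, Apoe was 8080 CPM, within the range of its group.

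Because Apoe and Apoc2 are measured in the same libraries, their ratio does not depend on the scaling between libraries. There were 0.556, 0.6, 0.605 and 0.451 Apoc2 reads per 1000 Apoe reads in L_C, 0.881, 0.576, 0.508 and 0.49 in L_O, 0.691, 0.798, 0.678 and 0.715 in H_C, and 1.04, 1.7, 0.922 and 1.08 in H_O. All 4 H_O libraries lay above every other library. The mean was 0.553 ± 0.0716 (SD, n = 4) in L_C and 1.19 ± 0.347 in H_O.

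Apoc2 therefore rose more than Apoe with glucose. The log2 ratio was higher by 0.39 in H_C than in L_C and by 0.95 in H_O than in L_O. It was also higher by 0.68 in H_O than in H_C, where Apoe fell. For each of these 3 comparisons the exact two-sided permutation p was 0.0286, the smallest possible, and 0.0381 after Benjamini-Hochberg adjustment over the 4 ratio comparisons, with higher values in 4 of 4 libraries. With 1 library left out, the H_O against H_C difference lost its call in 8 of 8 cases (adjusted p of the exact permutation test 0.0571 to 0.0762) and each of the other 2 in 4 of 8 cases (at most 0.0571 for H_C against L_C and 0.0762 for H_O against L_O). With so few arrangements these losses partly reflect the steps of the test and the adjustment. The unadjusted exact permutation p for H_C against L_C stayed at its smallest value, 0.0286, in 8 of 8 cases. For H_O against L_O and for H_O against H_C it ran from 0.0286 to 0.0571. Between L_O and L_C the log2 ratio differed by 0.12, with an exact permutation p of 0.714 (adjusted 0.714). Ratios with Apoc1 could not be formed, since several of its libraries have 0 reads.

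**Figure D3:**
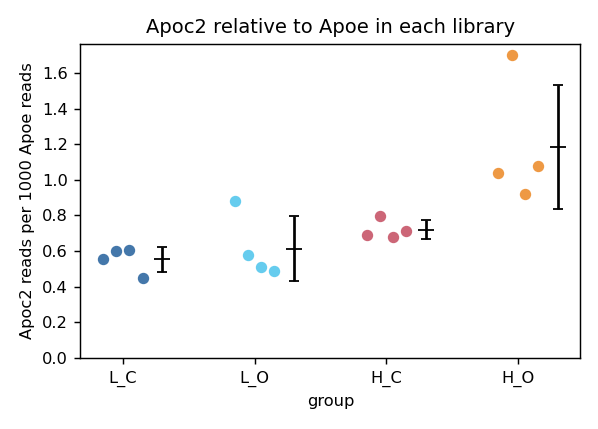
Apoc2 reads per 1000 Apoe reads in each library by group, with bars for the mean ± SD (n = 4). The H_O libraries lie between 0.922 and 1.7, above all libraries of the other groups, and L_O replicate 1 lies at 0.881, above the rest of L_O.

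Over the 16 libraries the log2 levels of Apoe and Apoc2 had a Pearson correlation of 0.64, and of -0.27 once each group's mean was removed. These are descriptions over libraries that share 4 conditions. Among 8503 genes with a mean log2 CPM of at least 3, those with the pattern most like Apoe were Dapk1, a death-associated kinase (r = 0.986), Cxcr4, a chemokine receptor (0.957), Mllt6 (0.956), Chd3, a chromatin remodeller (0.953), and Arl11 (0.951). With group means removed these correlations were 0.62, 0.43, 0.75, 0.52 and 0.62. Dapk1 had log2 fold changes of -0.30 and -0.32 with ox-LDL and 0.44 and 0.42 with glucose, each close to that of Apoe. For Apoc2 the most similar were Ncf1, a subunit of the phagocyte NADPH oxidase (r = 0.949), Pbxip1 (0.934), Hgsnat, a lysosomal acetyltransferase (0.932), Tbc1d9 (0.92) and Cdk2ap2 (0.911), or 0.75, 0.77, 0.68, 0.82 and 0.63 with group means removed. With single libraries left out, Apoc2 and each of these genes had their lowest H_O against L_O value without H_O replicate 2. How far the correlations rest on that library was not tested.

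The glucose rise of Apoe and Apoc2 was next set beside their neighbours on the chromosome. Of 16 neighbouring genes listed, 13 were tested. In H_C against L_C, 0 of 13 were called by edgeR, with 2 at an unadjusted p under 0.05 and 1 called by each of DESeq2 and limma-voom, against 12.8% of all entries called in either direction. In H_O against L_O 1 of 13 was called, Gemin7 at 0.34 (SE 0.098, edgeR adjusted p = 0.0491), a call lost in 16 of 25 alternatives, against 6.11% of all entries. The nearest tested neighbour, Tomm40, had log2 fold changes of -0.03 and 0.03 with glucose. Nectin2, a cell adhesion protein beyond it, had -0.07 and 0.20, neither called.

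With ox-LDL the neighbours showed several directions. Tomm40 rose by 0.28 (SE 0.087, edgeR adjusted p = 0.0214) in low glucose and by 0.34 (SE 0.086, edgeR adjusted p = 0.00819) in high glucose, opposite to Apoe. Relb, an NF-kappaB subunit, fell by 0.56 and 0.64. Bcam, a laminin-binding adhesion molecule, fell by 0.80 in high glucose (edgeR adjusted p = 0.0252). In all, 1 neighbour rose and 1 fell in low glucose (median -0.06 against 0.000925 over all entries, with 25.8% of all entries called), and 1 rose and 2 fell in high glucose (median 0.03 against 0.00894, with 21.9% called).

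**Figure D4:**
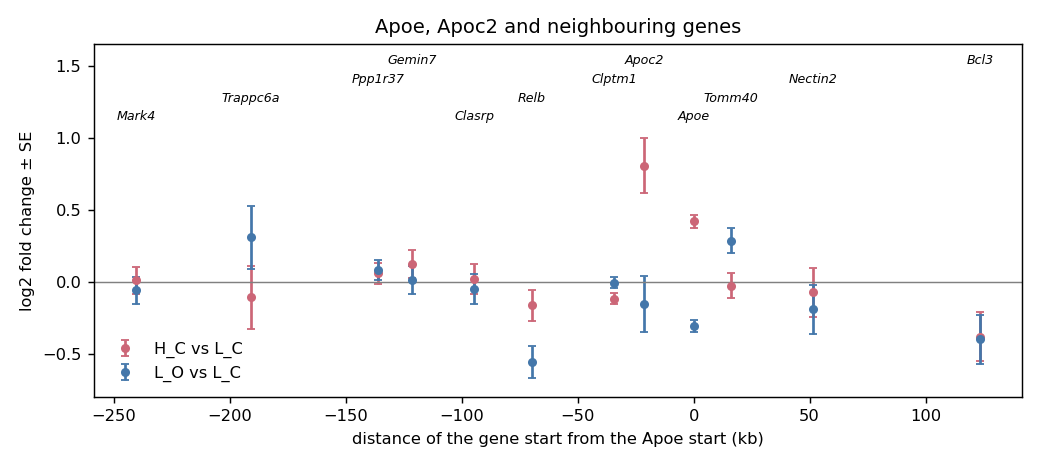
Log2 fold change ± SE of Apoe, Apoc2 and the neighbouring genes with a mean log2 CPM of at least 2, against the distance of each gene's start from that of Apoe in kilobases, for glucose (H_C vs L_C) and ox-LDL (L_O vs L_C). Apoc2 at 0.81 and Apoe at 0.42 are the 2 highest glucose values on the plot, and Tomm40 at 0.28 lies opposite to Apoe at -0.31 for ox-LDL.

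Other apolipoproteins and genes named for them were few in these cells. Of 26 listed, 16 were in the table and 6 were tested. Apobec1, the enzyme that edits apolipoprotein B mRNA, fell with ox-LDL by 0.37 in low glucose (edgeR adjusted p = 4.81e-06) and by 0.25 in high glucose (edgeR adjusted p = 0.000414), and it was the single gene of the list that edgeR called in those comparisons, where 13.8% and 11.5% of all entries fell. DESeq2 called 2 of the 6 in low glucose and 1 in high glucose. With glucose 0 of 6 were called by edgeR, DESeq2 or limma-voom, and 1 of 6 had an unadjusted p under 0.05 in each glucose comparison. Median log2 fold changes were -0.24 and -0.04 for ox-LDL and -0.23 and 0.11 for glucose.

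Lipoprotein lipase, the enzyme that Apoc2 activates, moved against Apoc2 with glucose. Lpl was 933, 950, 1420 and 822 CPM in L_C and 537, 595, 519 and 573 CPM in H_C. With ox-LDL it was 715, 744, 728 and 759 CPM in L_O and 452, 296, 420 and 490 CPM in H_O. Neither pair of groups overlapped. Lpl fell with glucose by 0.89 (SE 0.144, edgeR adjusted p = 0.000465) without ox-LDL and by 0.83 (SE 0.144, edgeR adjusted p = 0.00152) with it, while Apoc2 rose by 0.81 and 1.37.

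With ox-LDL Lpl fell by 0.48 (SE 0.143, edgeR adjusted p = 0.0172) in low glucose and by 0.42 (SE 0.143, edgeR adjusted p = 0.0405) in high glucose. The first value was -0.29 without L_C replicate 3 (edgeR adjusted p = 0.0725), and the second call was lost in 10 of 25 alternatives. Angptl4, a secreted inhibitor of lipoprotein lipase, rose by 3.78 (SE 0.213) and 3.93 (SE 0.210) with ox-LDL, from 1.85 to 25.6 CPM in low glucose and from 2.3 to 35.2 CPM in high glucose. Mgll, a monoacylglycerol lipase, fell in all 4 comparisons, by 0.54 and 0.85 with glucose. Pnpla2, the triglyceride lipase of lipid droplets, fell by 0.45 and 0.30 with ox-LDL.

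Over the 14 tested genes of the lipoprotein lipase list, 1 rose and 4 fell with ox-LDL at each glucose level. With glucose 0 rose and 2 fell without ox-LDL, and 0 rose and 3 fell with it. Over all entries, 12% rose and 13.8% fell in L_O against L_C, 10.4% rose and 11.5% fell in H_O against H_C, 5.02% rose and 7.75% fell in H_C against L_C, and 2.71% rose and 3.39% fell in H_O against L_O. The list's medians were -0.10 and -0.05 for ox-LDL and -0.05 and 0.02 for glucose. The medians of all entries were 0.000925, 0.00894, -0.00454 and 0.00304 in the same order.

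Receptors and surface partners of Apoe were divided. Of 27 tested, 7 rose and 10 fell in L_O against L_C and 8 rose and 10 fell in H_O against H_C, with medians of -0.12 and -0.17. Over all entries, 12% rose and 13.8% fell in the first comparison and 10.4% rose and 11.5% fell in the second. With glucose 2 rose and 4 fell in H_C and 1 rose and 3 fell in H_O, with medians of -0.03 and 0.05, against 5.02% of all entries that rose and 7.75% that fell in H_C, and 2.71% that rose and 3.39% that fell in H_O. Lrp1, a large endocytic receptor that binds Apoe, was abundant at 4960 CPM in L_C, and fell by 0.17 with ox-LDL in high glucose (edgeR adjusted p = 0.00315). Its glucose value of 0.12 (edgeR adjusted p = 0.0484) lost its call in 15 of 25 alternatives. Vldlr was at 0.155 to 0.415 CPM on average and was not called.

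Several surface partners changed much more than Apoe with ox-LDL. Stab1, a scavenger receptor, rose by 1.68 and 1.5, and Cd36, a receptor for oxidised LDL, rose by 1.38 and 1.47. Sdc1, a heparan sulfate proteoglycan that can bind Apoe, fell by 2.00 and 1.81. Trem2, a lipid-sensing receptor for which Apoe is a ligand, fell by 0.37 (SE 0.072) and 0.45 (SE 0.072), and had glucose values of 0.01 and -0.07 that were not called. Stab1 also rose with glucose, by 0.50 and 0.32.

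**Figure D5:**
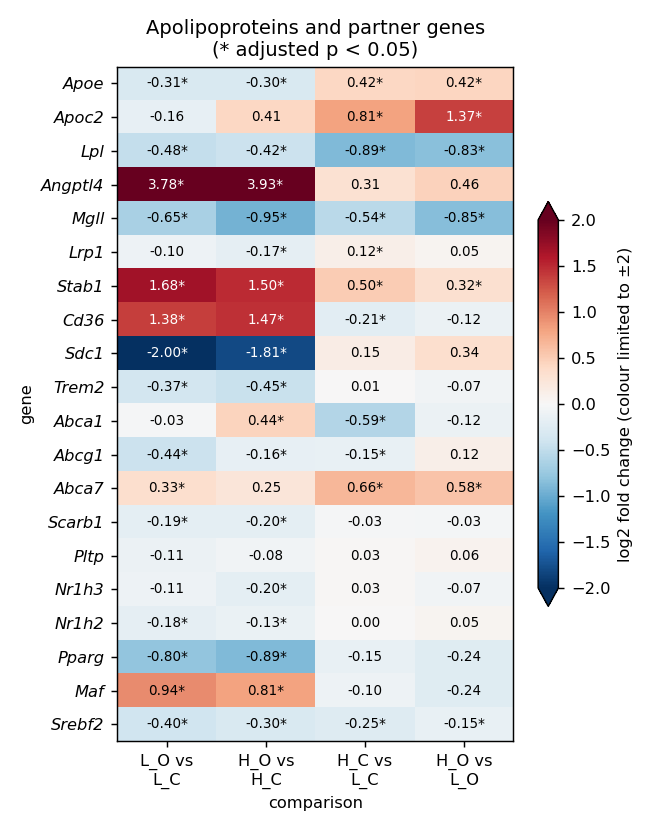
Log2 fold changes of Apoe, Apoc2 and 18 partner genes in the 4 pairwise comparisons, with stars for an edgeR adjusted p under 0.05 and colour limited to ±2. Lpl is negative in the glucose columns where Apoe and Apoc2 are positive, and Angptl4 reaches 3.93 with ox-LDL.

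Among the genes that load cholesterol onto lipoproteins, the ABC transporters differed from Apoe and from each other. Abca1, which exports cholesterol to lipid-poor apolipoproteins, fell by 0.59 with glucose without ox-LDL (SE 0.064, edgeR adjusted p = 1.32e-05) and rose by 0.44 with ox-LDL in high glucose (SE 0.064, edgeR adjusted p = 4.96e-05). Abcg1, which exports cholesterol to HDL, fell by 0.44 and 0.16 with ox-LDL. Abca7, a related transporter, rose with glucose by 0.66 and 0.58, in the same direction as Apoe and Apoc2. Scarb1, the HDL receptor, fell by 0.19 and 0.20 with ox-LDL. Pltp, the phospholipid transfer protein, had values from -0.11 to 0.06 and was not called.

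Soat1, which esterifies cholesterol for storage, fell by 0.17 and 0.28 with ox-LDL, and Npc2, a lysosomal cholesterol carrier, fell by 0.46 and 0.47. Gramd1b, a carrier of cholesterol from the plasma membrane, rose by 0.26 and 0.46. Of the 23 tested efflux genes, 3 rose and 6 fell in L_O against L_C (median -0.03) and 2 rose and 7 fell in H_O against H_C (median -0.08), where 12% and 10.4% of all entries rose and 13.8% and 11.5% fell, so the rises were near the share over all entries. With glucose, 1 rose and 5 fell without ox-LDL (median 0.01), and 1 rose and 4 fell with it (median -0.02), beside 5.02% and 2.71% of all entries that rose and 7.75% and 3.39% that fell.

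The LXR genes, whose products act on Apoe and Apoc2 transcription, were not called higher in any comparison. Nr1h3, which encodes LXR-alpha, had values of -0.11 and -0.20 with ox-LDL and 0.03 and -0.07 with glucose. The -0.20 passed the test at an edgeR adjusted p of 0.0499 and lost its call in 16 of 25 alternatives. Nr1h2, which encodes LXR-beta, fell by 0.18 with ox-LDL in low glucose (edgeR adjusted p = 0.00721) and by 0.13 in high glucose (edgeR adjusted p = 0.0429), the second a call lost in 13 of 25 alternatives. Its glucose values were 0.00 and 0.05. Rxra, the partner of both LXRs, is named here after its values were seen: it rose by 0.35 and 0.24 with ox-LDL, and its glucose value without ox-LDL was 0.20, or 0.12 without L_C replicate 4. Pparg, another lipid-sensing nuclear receptor, fell by 0.80 and 0.89 with ox-LDL. Maf, a macrophage transcription factor, rose by 0.94 and 0.81, and Cebpb fell by 0.41 and 0.40. Srebf2, the master regulator of cholesterol synthesis, fell in all 4 comparisons, by 0.40, 0.30, 0.25 and 0.15, the last a call lost in 6 of 25 alternatives. Of the 25 regulators tested, 2 rose and 12 fell in L_O against L_C (median -0.16) and 3 rose and 8 fell in H_O against H_C (median -0.12). The shares of all entries were 12% higher and 13.8% lower, and 10.4% higher and 11.5% lower. With glucose, 3 rose and 3 fell without ox-LDL (median -0.07), beside 5.02% and 7.75% of all entries, and 1 rose and 1 fell with it (median 0.02), beside 2.71% and 3.39%.

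Other genes known as LXR targets moved in both directions. With ox-LDL, where Apoe fell, 4 of 19 rose and 5 fell in low glucose and 7 rose and 6 fell in high glucose. All entries gave 12% higher and 13.8% lower in the first and 10.4% higher and 11.5% lower in the second. With glucose, where Apoe rose, 1 rose and 6 fell without ox-LDL (all entries 5.02% and 7.75%) and 3 rose and 2 fell with it (all entries 2.71% and 3.39%). Mylip, a ubiquitin ligase that degrades lipoprotein receptors, rose by 0.60 and 0.84 with ox-LDL, and Lpcat3, which remodels phospholipids, rose by 0.48 and 0.67. Scd2, a fatty acid desaturase, fell by 1.18 and 0.62. Fasn, the fatty acid synthase, fell by 0.92 and 0.49 with ox-LDL and rose by 0.58 in H_O against L_O. The medians were -0.11, -0.08, -0.05 and 0.08 for ox-LDL in low and in high glucose and for glucose without and with ox-LDL.

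Genes known from lipid-laden macrophages, a list in which Apoe itself is often placed, fell more often than they rose with ox-LDL. Of 24 tested, 4 rose and 14 fell in low glucose (median -0.29) and 3 rose and 11 fell in high glucose (median -0.16), while 12% of all entries rose and 13.8% fell in low glucose and 10.4% rose and 11.5% fell in high glucose. With glucose, where Apoe rose, 0 rose and 9 fell without ox-LDL (median -0.14) and 1 rose and 5 fell with it (median -0.06), while 5.02% and 2.71% of all entries rose and 7.75% and 3.39% fell. Fabp4, a fatty acid carrier, fell by 0.66 and 0.78 with ox-LDL and had glucose values of 0.04 and -0.08. Itgax fell by 1.01 and 1.03 with ox-LDL and by 0.36 and 0.38 with glucose, and Clec7a, a beta-glucan receptor, fell by 0.71 and 0.65 with ox-LDL and by 0.54 and 0.48 with glucose. Itgax is also one of the small-macrophage markers summed above. Some other genes, among them Lpl, Abca1, Abcg1, Cd36 and Trem2, are in more than 1 of the gene lists, so the counts of different lists are not independent.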

How the data were processed

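RNA from 16 libraries (4 groups of 4) was sequenced. Raw read counts per gene were deposited as 1 table by the authors, and the submitters' processing notes name HISAT2, DESeq2 and mm10 with no version or role. The counter, annotation and strand setting are not given in the sources used here. Groups followed the labels. Entries passing filterByExpr (13527 of 15871) were fitted in edgeR 4.0.16 (R 4.3.3) with TMM scaling and a quasi-likelihood model over all 16 libraries, and p-values were adjusted by Benjamini-Hochberg over all tested entries, called under 0.05. Log2 CPM used a prior count of 2. Alternatives were RLE, upper-quartile and no scaling, other low-count filters, DESeq2 1.42.0, limma-voom 3.58.1, a replicate block, fits of 8 libraries and each library left out. Ratio tests were planned for all pairs of members, but only Apoc2 to Apoe could be formed. On data simulated for L_O against L_C over 13304 genes, 55.1% of 98 genes changed by 0.5 and 67.3% of 98 changed by 1 (log2) were called, with 7 false calls. The members and gene lists were chosen with earlier results of these data known. Genes named beside the members were those fixed by name and up to 4 more of each list with the smallest adjusted p, and the 5 most similar genes; some named by this rule are not reported here. List members not in the table or too low to test were left out of counts.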

Additional observations from a re-analysis of the deposited data

Results flagged for a closer look

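Of 220 groups of 4 libraries examined for the genes named, 13 held a library that Dixon's test places apart from the other 3, and chance alone gives about 1 in 20. Apoc2 was 10.9 CPM in H_O replicate 2 against 6.46 to 6.94 in the other H_O libraries. Apoc4 was 0.0772 CPM in L_C replicate 4 and 0.244 CPM in H_C replicate 1, with the other libraries of those groups at 0. In L_C replicate 4, which stood apart over all genes, Tomm40 was 26.2 CPM against 34.4 to 35, Trem2 was 540 CPM against 713 to 741, Npc2 was 1300 CPM against 1840 to 1930, and Rxra was 163 CPM against 200 to 207. Relb was 18.3 CPM in L_O replicate 1 against 15.4 to 15.6. In L_O replicate 2, Abca1 was 153 CPM against 171 to 173 and Itgax was 400 CPM against 372 to 374. Rxra was 265 CPM in H_O replicate 4 against 261 to 262. Srebf2 was 154 CPM in H_O replicate 2 against 145 to 146, and Lpcat3 was 30.5 CPM in H_C replicate 1 against 33.8 to 34.1. No library of Apoe stood apart in any group by this test.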

How the results depend on the processing

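Across 408 alternative values of the 19 main results, 359 kept their direction and side of the threshold. Apoe and Apoc2 kept each of their calls under every alternative run, with a highest adjusted p of 0.00117 for Apoe and 0.0286 for Apoc2. The number of entries called for the difference of the ox-LDL effects was 2, against 96 with DESeq2, 0 with limma-voom, 0 with the replicate block and 0 to 53 with 1 library left out (53 without L_C replicate 4). With only the 8 libraries compared, 914 entries were called in H_C against L_C (1728 otherwise) and 1619 in H_O against L_O (826 otherwise). Leaving out 1 library gave 526 calls (without L_O replicate 1) to 1763 (without L_C replicate 4) in H_O against L_O. The Apoe difference of the ox-LDL effects was -0.01 with upper-quartile factors and with no scaling, and -0.02 to 0.03 with 1 library left out. The Apoc2 difference was 0.36 (without H_O replicate 2) to 0.77. The cause of these shifts was not tested. With no scaling the Apoe ox-LDL values were smaller, -0.22 and -0.24, and the ox-LDL median of the 13 neighbours in low glucose was 0.03 in place of -0.06 and that of the 23 efflux genes 0.06 in place of -0.03. Of 121 calls of the other named genes, 97 were kept in all 25 alternatives and 24 were lost in 1 or more, with 0 reversed. With 1 library left out (35 arrangements, smallest exact permutation p 0.0286), the Apoc2 to Apoe differences kept an adjusted p under 0.05 in 0 of 8 cases for H_O against H_C and in 4 of 8 for each glucose comparison. The unadjusted exact permutation p was 0.0286 to 0.0571 for H_O against H_C and for H_O against L_O, and 0.0286 throughout for H_C against L_C. The differences ran from 0.49 to 0.79 (H_O against H_C), 0.29 to 0.44 (H_C against L_C), 0.77 to 1.14 (H_O against L_O) and -0.07 (without L_O replicate 1) to 0.21 (L_O against L_C). No pairing by replicate number was seen: with group means removed, correlations of same-numbered libraries ran from -0.15 to 0.13, and 5 of 16 libraries correlated best with their own number. Whether same-numbered libraries share a mouse or a preparation cannot be told from this. Apoc1 did not pass the low-count filter and was not called without it, and Apoc2 rests on 85 to 415 reads, which widens its errors.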
